A study of Homo sapiens with 16 samples.

Results

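The distribution of RNA between the nucleus and the cytoplasm was measured in SNU-449, an established human hepatocellular carcinoma cell line, under the control transfection, which the labels call NC without spelling it out. The comparison uses 4 of the 16 libraries of the study, chosen by line, transfection and fraction: 2 nuclear and 2 cytoplasmic NC libraries, which the study describes as biological duplicates. All cells had been transfected for 48 h, so the baseline is that of transfected and not of untouched cells. The remaining SNU-449 libraries, 2 of each fraction, were made from cells that received siPANAD-1 together with siPANAD-2, and the other 8 libraries repeat the same design in HepG2, another liver cancer line. The study links PANAD, the product of C7orf25, to the export receptor NXF1, to CDK6 mRNA and to entry into S phase. The question here is which RNAs and which classes of RNA sat in either compartment before any knockdown.

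RNA is transcribed, capped, spliced and polyadenylated in the nucleus, and finished mRNAs are handed to export factors, among them the TREX complex and the NXF1-NXT1 receptor, which carry them through the nuclear pore. Long-lived, well translated mRNAs are therefore mostly found in the cytoplasm. RNAs that are not exported, are still being processed, keep introns or turn over soon after export are found mainly in the nucleus.

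The 4 libraries held 17682648 to 19498081 counts, and a gene without counts is bounded by 3 counts, which is 0.154 to 0.170 CPM (counts scaled to library size) before any further factor. Nuclear RNA was the more diverse: 16932 and 17021 genes reached 10 counts there, against 14069 and 14040 in the cytoplasm, and the 100 most counted genes took 14.95% and 14.6% of the nuclear counts against 25.2% and 25.4% of the cytoplasmic ones. The 2 libraries of a fraction differed by more than counting noise (chi-square per degree of freedom 5.86 in the cytoplasm and 8.26 in the nucleus) and correlated across genes at 0.996 and 0.995 (Pearson, log2 CPM). Levels below are CPM scaled by TMM factors, which put the bulk of the genes at equal levels in all libraries, and a ratio is the log2 of nucleus over cytoplasm, with its standard error (SE). A ratio of 0 therefore means a gene distributed like the typical gene, not equal molecule numbers in the compartments. Where 2 pairs of values are set against each other, the cytoplasmic pair comes first. From scaling by library totals to scaling by TMM, log2 ratios fell by 0.85 (median over genes). In these bulk fractions, fewer contributing cells and less RNA per cell cannot be told apart.

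The label hepatocellular carcinoma cells held in part. Of 32 hepatocyte markers 17 passed the filter on low counts. ALB, the serum albumin gene, had 0 and 0 counts in the cytoplasm and 3 and 5 in the nucleus, and APOB, APOA2, APOC3 and G6PC1 had none in any of the 4 libraries. The fibrinogen chains FGB and FGG, secreted by hepatocytes, were present, FGB at 68.4 and 54.8 CPM in the cytoplasm and 207 and 172 in the nucleus. AMBP and FOXA2, 2 further hepatocyte markers, had 41.3 and 39.0 CPM before TMM scaling (mean of the 4 libraries). Of 25 mesenchymal markers 23 passed the filter. None of the 25 was without a count in the 4 libraries, against 4 of the 32 hepatocyte markers. VIM, the intermediate filament vimentin, was at 1602 and 1492 CPM in the cytoplasm and 1333 and 1246 in the nucleus (24.4% of exonic bases shared with other genes). The summed hepatocyte list took 0.013% to 0.053% of a library's counts and the mesenchymal list 0.390% to 0.854%. Of the 14 epithelial markers 7 passed. The keratins KRT7, KRT8 and KRT18 had 3852 counts or more in every library and CLDN1 had 2221 or more. CDH1 and EPCAM stayed at 8 counts or fewer in every library. Immune and blood cell markers were at or near 0 (8 of 16 without a count, the others at 19 counts or fewer in each library), apart from CD14 at 14.2 and 13.6 CPM in the cytoplasm and 16.6 and 15.5 in the nucleus. All 37 mitochondrially encoded gene entries had 0 counts, so mitochondrial carry-over into a fraction could not be read from them.

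The fraction labels were checked first on genes of known location. MALAT1, a long non-coding RNA of nuclear speckles (ENSG00000251562, GRCh38 chr11:65497688-65506516, plus strand), had 4.62 and 3.12 CPM in the cytoplasmic libraries and 311 and 308 in the nuclear ones. NEAT1, the scaffold of paraspeckles (ENSG00000245532, chr11:65422774-65445540, plus strand), had 8.51 and 6.59 CPM in the cytoplasm and 416 and 424 in the nucleus. Both lay far apart between the fractions with no overlap, at log2 ratios of 6.32 (SE 0.14) and 5.80 (SE 0.13), or 80.1-fold and 55.7-fold toward the nucleus. GAPDH, the glycolytic dehydrogenase used as a cytoplasmic mRNA marker (ENSG00000111640, chr12:6533927-6538374, plus strand), had 5869 and 5591 CPM in the cytoplasm and 953 and 1028 in the nucleus, 5.78-fold toward the cytoplasm (log2 -2.53, SE 0.10). The adjusted p was 1.4e-29 for MALAT1 and for NEAT1 and 2.1e-23 for GAPDH, by edgeR's quasi-likelihood test with Benjamini-Hochberg adjustment, the test behind every adjusted p and every call below (threshold 0.05). The 4 libraries thus matched their labels on all 3 markers, and the cytoplasmic libraries still held a low level of MALAT1 and NEAT1 reads.

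**Figure D1:**
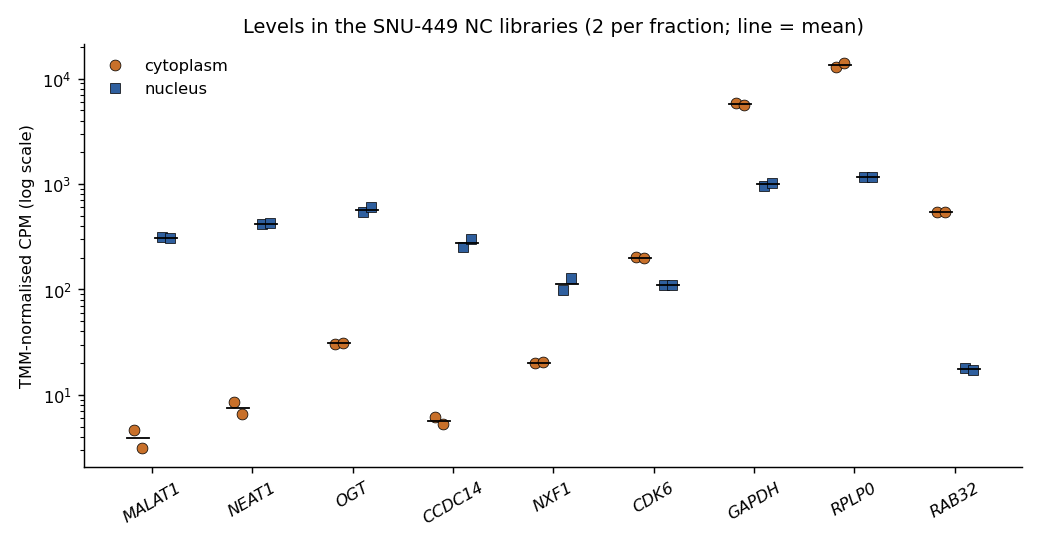
TMM-normalised CPM (log axis) of 9 genes in the 2 cytoplasmic (circles) and 2 nuclear (squares) SNU-449 NC libraries, with the mean of each pair as a line. MALAT1, NEAT1, OGT, CCDC14 and NXF1 sit higher in both nuclear libraries, and CDK6, GAPDH, RPLP0 and RAB32 higher in both cytoplasmic ones.

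MALAT1 and NEAT1 share a feature that the comparison did not use: their long forms end in no poly(A) tail but in a genomically encoded triple helix, in which U-rich motifs clasp an A-rich tract, an element known to stabilise such RNAs in the nucleus. The 3′ elements of both, read from GENCODE 29 transcripts (GRCh38, plus strand, printed as DNA 5′ to 3′), are shown here for comparison, with U-rich motif 1, U-rich motif 2 and the A-rich tract in capitals (MALAT1 chr11:65506021-65506116, NEAT1 chr11:65445443-65445540).

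MALAT1: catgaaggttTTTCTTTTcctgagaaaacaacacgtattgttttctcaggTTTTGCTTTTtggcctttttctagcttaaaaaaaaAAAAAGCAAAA
NEAT1: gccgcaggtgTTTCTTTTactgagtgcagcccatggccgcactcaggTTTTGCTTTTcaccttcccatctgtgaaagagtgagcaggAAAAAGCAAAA

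The stretch between the U-rich motifs differs between them, while each of the 3 motifs in capitals has the same letters in both. Of 14994 long non-coding genes in GENCODE 29 (28478 transcripts, transcript strand only), 2, MALAT1 and NEAT1, hold these 3 motifs in this order within 120 bases, or 0.0133% of genes. The motifs were taken from these transcripts, so the search describes how rare the letters are and no more.

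Most genes were unevenly distributed. Of 17895 genes tested, 14272 (79.8%) passed the threshold: 7789 (43.5%) were higher in the nucleus and 6483 (36.2%) higher in the cytoplasm. At least 2-fold differences among them numbered 5790 (32.4%) toward the nucleus and 4172 (23.3%) toward the cytoplasm. These shares are the background against which each class and list below is read. With library totals in place of TMM factors 11362 genes were higher in the nucleus and 3463 in the cytoplasm, 76.6% against 54.6% of the calls on the nuclear side.

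Gene classes differed widely in where their RNA lay. Protein-coding genes split almost evenly, 5288 of 13352 higher in the nucleus and 5619 in the cytoplasm, with a median log2 ratio of -0.024 (above 0, at 0.82, with library totals and at 0.12 with TMM on protein-coding genes). Long non-coding genes leaned to the nucleus: 1484 of 2618 were higher there and 387 in the cytoplasm, with a median of 1.42 against 0.22 over all genes tested. Within this class the genes that lie in an intron of another gene on its strand (sense intronic) had a median of 2.78, antisense genes 1.38 and intergenic lincRNAs 1.17. Long non-coding genes took 0.560% and 0.546% of the counts in the cytoplasmic libraries and 1.52% and 1.61% in the nuclear ones.

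Annotated small RNA genes lay furthest to the nuclear side. Among 44 snoRNA genes, whose products guide the modification of ribosomal RNA in the nucleolus, 36 were higher in the nucleus and 3 in the cytoplasm (median 4.53), and miRNA genes had a median of 3.23 over 41 genes. Of the 125 tested genes annotated as snoRNA, miRNA, snRNA or misc_RNA, 92 lie inside a longer gene on the same strand, so that reads of the host's unspliced transcript can be counted there, and the part of such reads was not tested. All small RNA genes together held 0.0062% and 0.0076% of the cytoplasmic counts and 0.0336% and 0.0327% of the nuclear counts. Processed pseudogenes, intronless copies of mRNAs, divided evenly: 257 of 678 were higher in the nucleus and 294 in the cytoplasm, with a median of -0.22 that turned to 0.62 with library totals. Their reads may belong in part to the parent genes.

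**Figure D2:**
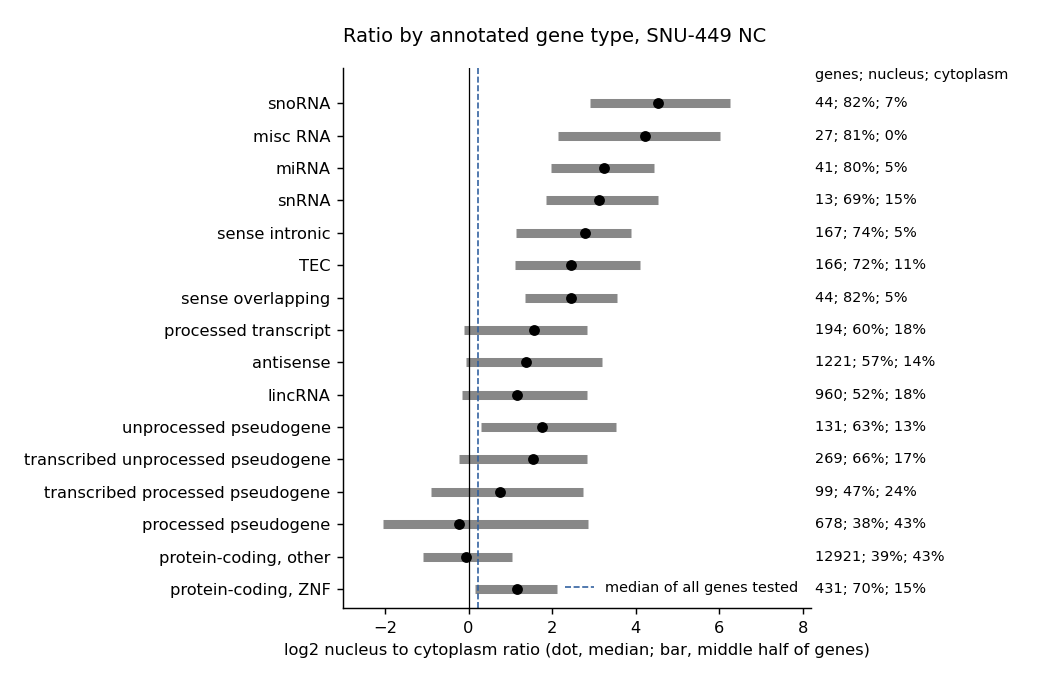
Log2 nucleus to cytoplasm ratio by annotated gene type in SNU-449 NC, with the median as a dot and the range from the 25th to the 75th percentile as a bar; the right column gives the genes tested and the percent higher in the nucleus and in the cytoplasm. Every non-coding type has its median to the right of the dashed median of all genes tested, and processed pseudogenes and protein-coding genes other than ZNF genes lie to its left.

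By the median ratio, the nuclear lean of long non-coding genes was strongest among those with few counts. Under 1 CPM (mean of the 4 libraries), 834 of 1444 were higher in the nucleus and 87 in the cytoplasm, a median of 1.88. From 10 to 100 CPM the counts were 83 and 64 of 164, a median of 0.32. The share higher in the nucleus differed less, 57.8% and 50.6%. The 8 genes at 100 CPM or more had a median of 1.01. A gene near the filter could pass it through the fraction where it was high, so the lowest level is biased to large ratios of either sign. Genes with no exonic base shared with another gene had a median of 1.38 (n = 1289 genes), close to the 1.42 of the whole class.

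By the rule for leading genes (mean of at least 10 CPM, no overlap of the libraries, under 20% of exonic bases shared), 69 long non-coding genes qualified on the nuclear side and 58 on the cytoplasmic side. The largest nuclear ratio was that of an unnamed lincRNA, ENSG00000264112 (chr17:57989039-57994850, minus strand), with 1.54 and 1.13 CPM in the cytoplasm and 144 and 191 in the nucleus (log2 6.96, SE 0.18). MALAT1 came next, followed by MIRLET7IHG, MIR503HG, NEAT1 and MEG3. MEG3, an imprinted RNA expressed from the maternal allele, had 1.76 and 1.56 CPM in the cytoplasm and 59.3 and 67.3 in the nucleus (log2 5.25, SE 0.17). On the other side, MNX1-AS1, transcribed next to the homeobox gene MNX1, had 24.0 and 24.1 CPM in the cytoplasm and 2.24 and 2.13 in the nucleus (log2 -3.46, SE 0.17). SNHG29, a snoRNA host, had 405 and 462 CPM in the cytoplasm and 48.3 and 59.5 in the nucleus (log2 -3.01). NRAV, known as a regulator of antiviral genes, MTA1-DT, GATA2-AS1 and RNASEH1-DT completed the cytoplasmic group at -2.91, -2.91, -2.76 and -2.73. Cytoplasmic long non-coding RNAs were thus a minority of the class but reached ratios of 6.65-fold to 10.98-fold among these 6, with no overlap between the fractions.

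A list of long non-coding RNAs described as nuclear had 25 of 36 members tested; 20 were higher in the nucleus, 3 in the cytoplasm and 2 did not pass the test (median 3.22). Its exceptions were PAXIP1-DT, at 26.7 and 27.0 CPM in the cytoplasm and 7.96 and 8.47 in the nucleus (log2 -1.71), GNAS-AS1 (-1.13, 43.1% of exonic bases shared, and not past the threshold when any 1 NC library was left out or with library totals) and NUTM2A-AS1 (-0.58, and above 0 with library totals). A list described as cytoplasmic behaved less as its name says: 13 of 21 were higher in the nucleus and 6 in the cytoplasm (median 0.72). Its nuclear side was led by snoRNA hosts, with SNHG1 at 7.33 and 7.37 CPM in the cytoplasm and 125 and 156 in the nucleus and SNHG12 at 5.87 and 4.96 against 105 and 124. BCYRN1, a short brain-type RNA derived from an Alu element, had 13 and 24 counts in the cytoplasm and 0 and 0 in the nucleus, at least 20.8-fold higher in the cytoplasm against a floor of 3 counts over the nuclear pair.

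Host transcripts of microRNAs formed a nuclear group. The hairpins of microRNAs are cut from such transcripts in the nucleus by the Microprocessor, and the hairpins are exported on their own. Of 34 tested genes with a symbol of the form MIR...HG, 27 were higher in the nucleus, 4 in the cytoplasm and 3 did not pass the test (median 2.02, against 1.17 over 960 lincRNAs). Mature sequences of 1 arm of each product shown, from RefSeq (GRCh38.p14), are printed with the seed (bases 2 to 8) in capitals, to show which of them share one: let-7i-5p and let-7b-5p, from hosts on chromosomes 12 and 22, both have GAGGUAG, and miR-221-3p and miR-222-3p, from the single host MIR222HG, both have GCUACAU.

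let-7i-5p: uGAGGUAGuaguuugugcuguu
let-7b-5p: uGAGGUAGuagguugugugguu
miR-221-3p: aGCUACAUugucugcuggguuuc
miR-222-3p: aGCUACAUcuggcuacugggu
miR-503-5p: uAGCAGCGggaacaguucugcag
miR-34a-5p: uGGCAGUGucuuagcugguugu
miR-100-5p: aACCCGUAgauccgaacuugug
miR-17-5p: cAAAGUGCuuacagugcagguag
miR-23a-3p: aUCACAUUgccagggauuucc

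MIR222HG, the host of miR-221 and miR-222 (chrX:45745211-45770274, minus strand), had 0 and 3 counts in the cytoplasm and 413 and 448 in the nucleus, a ratio of 170.3 (exact 95% interval 58.1 to 827, counting error only). MIRLET7IHG, the host of let-7i (chr12:62602752-62622213, plus strand), had 0.293 and 0.496 CPM in the cytoplasm and 23.6 and 25.3 in the nucleus (log2 5.92, SE 0.24). MIR503HG, the host of miR-503, had 1.32 and 0.709 against 56.0 and 60.1 CPM in the same order (log2 5.84, SE 0.19). All 3 were nearly confined to the nuclear libraries, at or under 1.32 CPM in each cytoplasmic one. Further hosts followed at lower ratios: MIR34AHG at 4.90, MIR100HG at 4.03, MIR17HG at 3.85, MIR23AHG at 3.64 and MIRLET7BHG at 1.67. Among the exceptions, MIR1915HG had 78.3 and 72.1 CPM in the cytoplasm and 37.8 and 36.2 in the nucleus. It did not pass the threshold with library totals, at -0.17. MIR4435-2HG had 38.4 and 36.2 against 21.3 and 22.9 (above 0, at 0.095, with library totals). The other exceptions were MIR4733HG (-1.82, 29.1% of exonic bases shared) and MIR3667HG (-1.40). MIR3667HG had few counts and did not pass the test without cytoplasmic NC replicate 2 (-0.47), nuclear NC replicate 1 (-1.73) or nuclear NC replicate 2 (-1.14). Mature microRNAs were not measured in these libraries' gene counts, and the values concern the host transcripts.

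Among protein-coding genes, 2988 qualified as leading nuclear genes and 4157 as leading cytoplasmic ones. The nuclear side began with GOLGA8A, a golgin of the Golgi apparatus, at 0.660 and 0.709 CPM in the cytoplasm and 46.4 and 53.3 in the nucleus (log2 6.17, SE 0.20), and the gasdermin GSDMB at 0.587 and 0.496 against 29.7 and 25.8 (log2 5.67). CCDC14, a centriolar satellite protein (chr3:123897305-123961408, minus strand), had 6.16 and 5.24 CPM in the cytoplasm and 255 and 299 in the nucleus (log2 5.60, SE 0.13). Their ratios lie near those of NEAT1 and below that of MALAT1, although the genes encode proteins. PABPC1L, related to the cytoplasmic poly(A)-binding protein, had 4.55 and 4.82 against 186 and 214 CPM, and TRAF5, an adaptor of tumour necrosis factor receptors, 4.69 and 3.40 against 136 and 173. NKTR, a cyclophilin-related protein, had 5.21 and 5.03 against 127 and 151 CPM, and DST, the giant cytolinker dystonin, 19.4 and 14.7 against 361 and 419. The other genes of the group were KRTCAP2 (4.92), ZNF117 (4.58) and PSG4 (4.57). KRTCAP2 shares 18.4% of its 3826 exonic bases, with 552 bases in the transcript used for its length, so its value is uncertain. GOLGA8A, ZNF117 and PSG4 have close relatives in the genome, and their counts are uncertain to the extent that reads were split or dropped.

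A list of genes known for introns that stay in nuclear transcripts (CLK kinases, OGT, OGA, SR and related proteins) lay on the nuclear side. Of 31 members 27 were higher in the nucleus, 2 in the cytoplasm and 2 did not pass the test, with a median of 2.01; together they took 0.169% and 0.159% of the cytoplasmic counts and 0.866% and 0.902% of the nuclear ones. OGT, which adds O-GlcNAc to nuclear and cytoplasmic proteins (chrX:71533083-71575897, plus strand), had 30.6 and 31.3 CPM in the cytoplasm and 539.5 and 606 in the nucleus (log2 4.21, SE 0.11). RBM25, a splicing factor, had 11.7 and 8.65 against 169 and 192 CPM (log2 4.15). DDX5 and RBM39, the members with the most counts, were at 1.17 and 1.46, and the exceptions TRA2B and SRSF3 at -0.49 and -0.25 (0.36 and 0.59 with library totals, and SRSF3 did not pass without cytoplasmic NC replicate 1, at -0.22, or nuclear NC replicate 2, at -0.20). Counts per gene do not separate spliced from unspliced reads.

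All 35 members of a list of DNA repair and large nuclear enzymes were higher in the nucleus (median 1.93). POLQ, the polymerase of microhomology-mediated end joining, had 2.79 and 1.98 CPM in the cytoplasm and 45.6 and 57.2 in the nucleus (log2 4.43, SE 0.17). ATR, the kinase of the replication checkpoint, had 2.42 and 2.34 against 25.8 and 26.5 CPM (log2 3.45). PRKDC, the catalytic subunit of DNA-dependent protein kinase, was at 2.16. The genes numbered as ZNF, mostly zinc finger repressors, leaned the same way, 300 of 431 higher in the nucleus and 66 in the cytoplasm (median 1.17), and those on chromosome 19 had a median of 1.29. Many ZNF genes are near-copies of each other, which makes their single values uncertain.

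The cytoplasmic side of the leading protein-coding genes was led by RAB32, a small GTPase of lysosome-related organelles (ENSG00000118508, chr6:146543693-146554965, plus strand), with 548 and 540.0 CPM in the cytoplasm and 17.8 and 17.3 in the nucleus, 30.9-fold toward the cytoplasm (log2 -4.95, SE 0.11, adjusted p 1.4e-29). RFK, the riboflavin kinase, had 104 and 101 against 5.08 and 6.39 CPM, and PLIN3, a lipid droplet coat protein, 1482 and 1384 against 80.6 and 87.1. GNB2, a G protein beta subunit, had 2679.9 and 2647 CPM in the cytoplasm and 179 and 171 in the nucleus. RAB32 reached a ratio below that of every other gene of the group, and RFK, PLIN3 and GNB2 followed at -4.16, -4.10 and -3.93. RPL9, RILPL2, MRPL58, PRADC1, CIB2 and PKIB lay between -3.92 and -3.79; RPL9 encodes a ribosomal protein with pseudogene copies, and MRPL58 a peptidyl-tRNA hydrolase of the mitochondrial ribosome. None of the 10 genes overlapped between the fractions, which the rule required.

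Lists of translation and energy metabolism genes lay on the cytoplasmic side. Of 80 cytosolic ribosomal protein genes 73 were higher in the cytoplasm and 7 in the nucleus (median -1.84, and -0.99 with library totals), and the list took 11.5% and 11.7% of the cytoplasmic counts against 4.35% and 3.73% of the nuclear ones. RPLP0, a stalk protein of the large subunit (chr12:120196686-120201235, minus strand), had 12841 and 13996 CPM in the cytoplasm and 1171 and 1165 in the nucleus (log2 -3.52, SE 0.12). RPL8 had 10119 and 10938 against 1651 and 1212 CPM. RPL30 had 729 and 807 against 60.9 and 32.6, where the nuclear replicates were further apart than those of the other named members. RPL30 shares 21.6% of its exonic bases with other genes. The 7 genes on the nuclear side had a median level of 47.2 CPM against 636 for the 73 on the cytoplasmic side. RPL36A, the member with the largest nuclear ratio, had 0.440 and 0.496 CPM against 19.4 and 18.9, and RPS10 had 0.660 and 0.638 against 7.49 and 8.77. RPL36A shares part of its 3964 exonic bases with other genes, with 910 bases in the transcript used for its length. The value of RPL36A is therefore uncertain. RPS10 shares 39.4% of its exonic bases with another gene, so its value is uncertain, and it is the 1 gene of the 7 that shares 20% or more.

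Of 39 translation factors 28 were higher in the cytoplasm and 8 in the nucleus (median -0.89, and -0.044 with library totals). EEF1A1 and EEF2, the elongation factors that bring in aminoacyl-tRNA and move the ribosome, had log2 ratios of -1.26 and -1.59, and EIF3I, a subunit of an initiation complex, one of -3.20 (679 and 724 CPM against 77.9 and 75.1). EIF4A2, an RNA helicase whose gene hosts snoRNAs, led the members on the nuclear side with 38.3 and 35.2 CPM in the cytoplasm and 407 and 429.9 in the nucleus (log2 3.51, SE 0.11). EIF4A2 shares 17.9% of its 6133 exonic bases, with 1919 bases in the transcript used for its length, so its value is uncertain. Its paralogue EIF4A1 was also higher in the nucleus (0.733 and 1.77 against 8.05 and 10.1 CPM), but 48.6% of its exonic bases are shared with other genes.

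Nuclear-encoded mitochondrial genes followed. Among 76 oxidative phosphorylation subunits 57 were higher in the cytoplasm and 11 in the nucleus (median -1.16), and among 75 mitochondrial ribosomal proteins 61 and 6 (median -1.42). SDHB, the iron-sulfur subunit of complex II, had 223 and 218 CPM in the cytoplasm and 21.2 and 19.8 in the nucleus (log2 -3.43), and MRPS12 of the small mitoribosomal subunit had 634 and 687 against 58.0 and 54.2 (log2 -3.56). In both genes the replicates lay close together. The fractions did not overlap, which the choice of genes with large ratios made likely. Among the nuclear exceptions, NDUFV2 of complex I had 0.147 and 0.0709 CPM against 3.49 and 3.79 and NDUFA7 0.220 and 0.0709 against 2.37 and 1.36, both at a few counts in the cytoplasm, with 28.4% and 33.5% of exonic bases shared. Proteasome subunits divided 23 to 7 of 31 toward the cytoplasm (median -1.12), led by PSMD8 at 1098 and 1166 against 167 and 155 CPM. Glycolysis genes divided 13 to 4 of 17 (median -1.17): besides GAPDH, TPI1, the triose phosphate isomerase, was at -2.53, while the brain-type isoforms ENO2 and ALDOC were higher in the nucleus (1.19 and 1.54).

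Cytoskeleton genes divided 21 to 7 of 30 toward the cytoplasm (median -1.18). TUBA1B, an alpha-tubulin, had 825 and 854 CPM in the cytoplasm and 93.9 and 106 in the nucleus (36.6% of exonic bases shared). TMSB10, a thymosin that binds actin monomers, had 2739.7 and 3060.4 against 410.4 and 326. Replication-dependent histone genes, whose mRNAs lack a poly(A) tail and introns, had 35 of 44 tested members higher in the cytoplasm and 1 in the nucleus (median -1.69). Their levels were low: the 62 listed genes took 0.00498% to 0.00834% of each library's counts, with H2AC20 at 14.96 and 14.4 CPM in the cytoplasm and 3.01 and 2.13 in the nucleus.

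**Figure D3:**
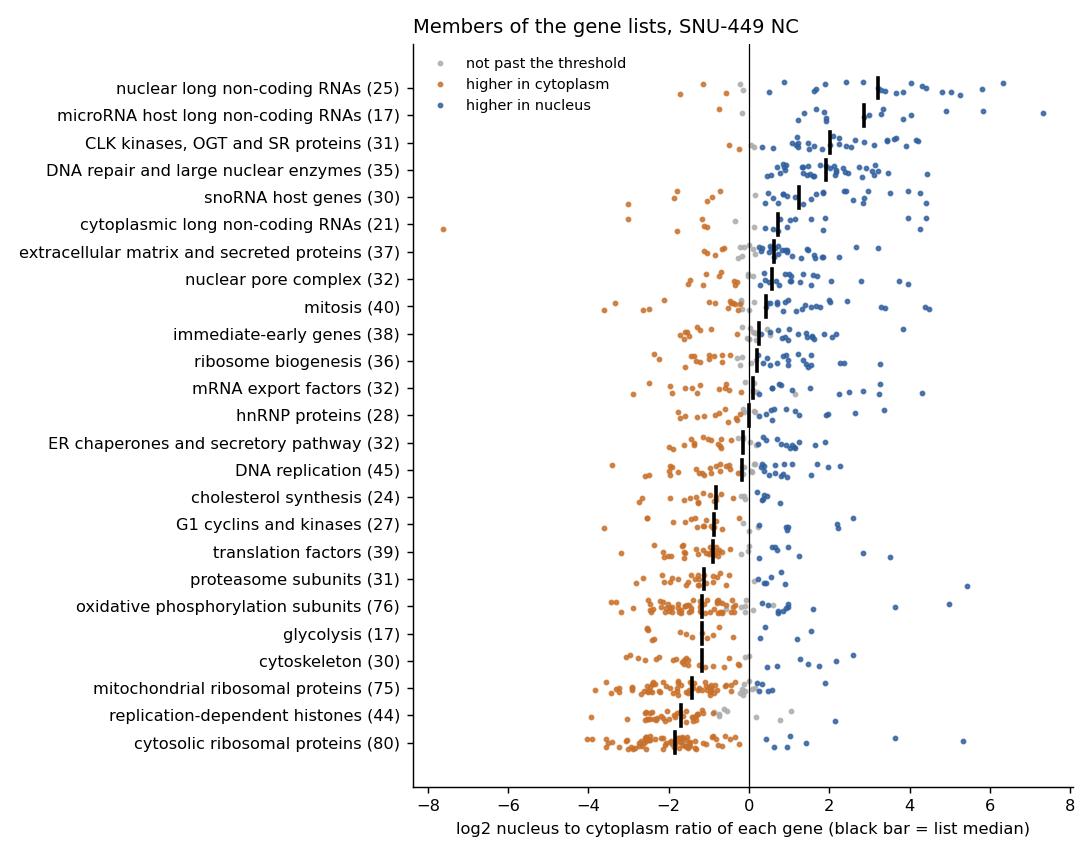
Log2 nucleus to cytoplasm ratio of every tested member of 25 gene lists in SNU-449 NC, ordered by list median (black bar), with the number tested in brackets; blue points are higher in the nucleus, orange in the cytoplasm and grey did not pass the threshold. Ribosomal proteins (median -1.84) and nuclear long non-coding RNAs (3.22) mark the ends, and most lists hold members on both sides.

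Genes of extracellular matrix and secreted proteins lay mostly on the nuclear side. Of 37 such genes 25 were higher in the nucleus, 5 in the cytoplasm and 7 did not pass the test (median 0.63), and they took 0.747% and 0.721% of the cytoplasmic counts against 1.71% and 1.78% of the nuclear ones. LAMB1, a laminin chain, had 47.4 and 39.6 CPM in the cytoplasm and 385 and 428 in the nucleus (log2 3.22, SE 0.10), and TGFBI, a matrix protein bound by integrins, 996 and 1017 against 1629.9 and 1695 (log2 0.72). SPARC, which binds collagen, and IGFBP7 were the reverse, at -1.11 and -1.05. These mRNAs are translated on the endoplasmic reticulum, whose membrane is continuous with the nuclear envelope. Any bearing of this on their ratios was not tested. Chaperones and secretory genes of the same organelle divided 13 toward the nucleus and 14 toward the cytoplasm of 32 (median -0.16, and 0.69 with library totals). The lumenal chaperone HSP90B1 had 272 and 240.1 CPM in the cytoplasm and 1029 and 867 in the nucleus, and HSPA5, its partner of the same lumen, 399.6 and 372 against 1219.5 and 1206. On the cytoplasmic side, the most counted members CALR and P4HB were at -1.38 and -1.16 and the translocon subunits SEC61B and SEC61G, which had the largest cytoplasmic ratios of the list, at -1.89 and -1.998.

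Genes of the export route itself were found on both sides. mRNA export factors divided 13 toward the nucleus and 13 toward the cytoplasm of 32 (median 0.11). NXF1, the receptor that carries mRNA through the pore (ENSG00000162231, chr11:62792123-62806302, minus strand), had 20.02 and 20.3 CPM in the cytoplasm and 99.8 and 128 in the nucleus (log2 2.49, SE 0.12); its partner NXT1 had 165 and 177 against 22.2 and 23.6 (log2 -2.90, SE 0.10). The mRNAs of both subunits of this receptor thus lay on opposite sides, with no overlap between the fractions in either gene. The TREX helicase paralogues differed too: DDX39B had 11.8 and 10.5 CPM in the cytoplasm and 200.04 and 242 in the nucleus (30.8% of exonic bases shared), DDX39A 942 and 825 against 371 and 386. ALYREF, the adaptor that recruits NXF1, was at -2.49 and the THO subunit THOC1 at 3.26. Of 32 nuclear pore genes 20 were higher in the nucleus and 9 in the cytoplasm (median 0.58), from TPR and RANBP2 of the pore's nuclear basket and cytoplasmic filaments at 3.96 and 3.73 to NUP37 at -1.53.

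CDK6, the kinase that works with D cyclins in G1 (ENSG00000105810, chr7:92604921-92836594, minus strand), had 201 and 198 CPM in the cytoplasm and 109 and 110.1 in the nucleus of control cells. Its ratio was -0.86 (SE 0.092, adjusted p 1.2e-10), which left it at -0.015 with library totals, where it did not pass the test. Of 27 G1 regulators 17 were higher in the cytoplasm and 7 in the nucleus (median -0.86). CDK4, the paralogue of CDK6, had 649 and 709 against 52.3 and 58.1 CPM (log2 -3.62; 43.2% of exonic bases shared), CCND3, a D cyclin, was at -2.54, and E2F3, an activator of S phase genes, at 2.58. C7orf25 itself had 3 and 2 counts in the cytoplasm and 5 and 7 in the nucleus and did not pass the filter, and 61.1% of its exonic bases are shared with other genes. Later cell cycle genes divided more evenly: 21 mitosis genes of 40 were higher in the nucleus and 14 in the cytoplasm (median 0.43). CENPF, a large kinetochore protein, had 16.5 and 12.9 CPM in the cytoplasm and 327 and 328 in the nucleus (log2 4.48), whereas MAD2L1, the small checkpoint protein, had 251 and 221 against 18.2 and 19.97 (log2 -3.62). Among 45 DNA replication genes 16 were higher in the nucleus and 21 in the cytoplasm (median -0.17, and 0.68 with library totals), with the polymerase subunits POLA1 at 1.97 and POLD2 at -3.42.

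Immediate-early genes, whose mRNAs are short-lived, had 17 of 38 members higher in the nucleus and 9 in the cytoplasm (median 0.24). Their nuclear share of 44.7% and their median lay near those of all genes tested, 43.5% and 0.22. The cytoplasmic share was 23.7%, against 36.2% over all genes tested. CCNL1, a cyclin of nuclear speckles, had 9.97 and 8.51 CPM in the cytoplasm and 120.2 and 143 in the nucleus, and ZFP36, which destabilises AU-rich mRNAs, 4.55 and 4.47 against 19.5 and 21.4; ID3, an inhibitor of helix-loop-helix factors, and the chemokine CXCL8 were at -1.71 and -1.62. snoRNA host genes had 23 of 30 members higher in the nucleus and 6 in the cytoplasm (median 1.24), and some of them also belong to the cytoplasmic long non-coding list above. hnRNP genes divided 12 to 12 of 28, with HNRNPH1 at 2.64 and HNRNPC at -1.59, and ribosome biogenesis genes 18 toward the nucleus and 13 toward the cytoplasm of 36. Cholesterol synthesis genes had 15 of 24 higher in the cytoplasm and 6 in the nucleus (median -0.82, and 0.032 with library totals), with PMVK, the phosphomevalonate kinase, at -2.66 and HMGCS1 at 0.77.

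Gene structure, which the comparison did not use, went with the ratio across 13344 protein-coding genes that have a GENCODE 29 transcript. Genes of 3 to 5 exons had a median ratio of -0.58, those of 6 to 10 exons -0.42, of 11 to 20 exons 0.24 and of over 20 exons 0.98; in the last group 69.7% of 1784 genes were higher in the nucleus and 15.1% in the cytoplasm. The 355 genes with 1 exon and the 661 with 2 exons broke the order, at -0.13 and -0.49. In 5 groups of equal size by exonic length, the group of the shortest genes (up to 2893 bases) had a median of -0.88 and that of the longest (from 8233 bases) one of 0.72. By GC content of the transcript, again in 5 groups, the medians ran from 0.39 in the lowest (up to 41.2%) to -0.53 in the highest (from 59.0%). With library totals the medians below 0 turned above it, apart from that of the group with the shortest exonic length (-0.033), and the order of the groups was the same. Spearman coefficients across genes, which are not independent replicates and share the 4 libraries, were 0.31 for exonic length, 0.30 for exon number, -0.20 for GC content and -0.38 for the mean level in CPM. Length and exon number were not interchangeable. In the group of the shortest exonic length, genes of over 10 exons had a median of -0.12 and genes of 1 to 5 exons -1.03. In the group of the longest these were 0.88 and 0.26. At a given length the ratio did not rise steadily with exon number. Genes of 6 to 10 exons lay below those of 1 to 5 exons in every length group but the shortest. In the middle group the medians were -0.18 for 1 to 5 exons, -0.36 for 6 to 10 and 0.27 for over 10.

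**Figure D4:**
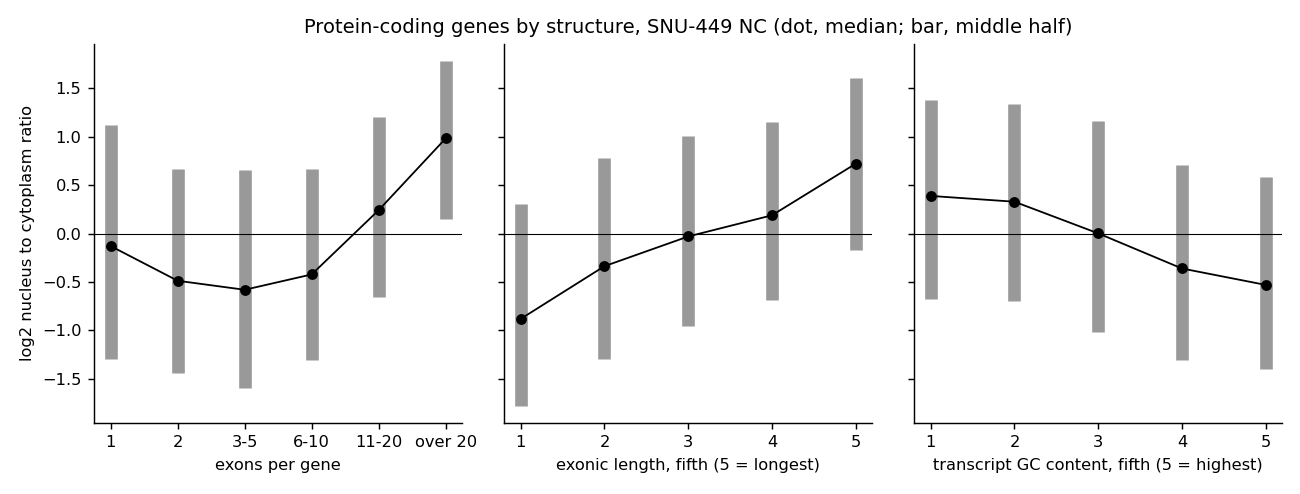
Median (dot) and range from the 25th to the 75th percentile (bar) of the log2 nucleus to cytoplasm ratio of protein-coding genes in SNU-449 NC, by exons per gene and by 5 groups of equal size along exonic length and along transcript GC content. The median falls from -0.13 at 1 exon to -0.58 at 3 to 5 exons and then climbs to 0.98 above 20 exons. It climbs from -0.88 to 0.72 along exonic length and falls from 0.39 to -0.53 along GC content. The bars of neighbouring groups overlap.

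The same ratio was formed from the other SNU-449 libraries, those of cells given siPANAD. Their counts do not enter the NC ratio itself. Both ratios came from 1 fit with a common filter, scaling step and estimate of spread, so the 2 sets of calls are not independent. There 81.2% of the 17895 genes tested passed the threshold: 7995 genes (44.7%) were higher in the nucleus and 6544 (36.6%) in the cytoplasm. Of the 7789 genes higher in the nucleus in NC cells 6879 were also called there with siPANAD, 88.3% of the NC calls and 86.0% of the siPANAD calls, and 62 were called in the opposite direction. On the cytoplasmic side 5712 calls were shared, 88.1% and 87.3%, and 117 were opposite. MALAT1, NEAT1 and GAPDH had siPANAD ratios of 7.03, 6.93 and -2.88, RAB32 -4.84, OGT 4.01, RPLP0 -3.53, POLQ 4.10 and MIR222HG 5.64. CDK6 was among the genes of opposite sign, at -0.86 in NC and 0.77 with siPANAD. The list medians with siPANAD were -2.20 for ribosomal proteins, 1.84 for CLK kinases, OGT and SR proteins and 1.92 for DNA repair and large nuclear enzymes. Other lists lay elsewhere: the cytoplasmic long non-coding list had a median of 0.045 with 8 members higher in the nucleus and 7 in the cytoplasm, mitosis genes one of -0.070 with 16 and 17, and extracellular matrix and secreted protein genes one of 1.19 with 29 and 2. The difference between siPANAD and NC was not tested here.

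To show where SNU-449 departs from another liver line, the difference of the NC ratios, SNU-449 minus HepG2, was tested over 20459 genes. It passed the threshold in 6821 (33.3%), 4089 (20%) with the higher nuclear share in SNU-449 and 2732 (13.4%) in HepG2; this split turned to 3195 and 3604 with RLE size factors and to 2942 and 3401 with DESeq2, and which line had more such genes therefore turned with the scaling. NEAT1 differed by 2.40 (SE 0.21, edgeR adjusted p 8.3e-13) and MALAT1 by 0.88 (SE 0.22, edgeR adjusted p 0.0011), both more nuclear in SNU-449, where their ratios were 5.80 and 6.32 against 3.43 and 5.48 in HepG2. The MALAT1 difference did not pass when tested against a 1.5-fold change (glmTreat). GAPDH (0.34, SE 0.19), CDK6 (-0.12, SE 0.16) and NXF1 (0.30, SE 0.17) did not pass the test, although GAPDH did without HepG2 cytoplasmic NC replicate 2 (0.52), and GAPDH (0.54) and NXF1 (0.50) did with library totals. MFNG, a fringe glycosyltransferase that modifies Notch, had 5.13 and 5.10 CPM in the cytoplasm and 41.2 and 52.0 in the nucleus of SNU-449 and a ratio of -1.59 in HepG2, a difference of 4.80 (SE 0.22). RPS24, one of the few ribosomal protein genes on the nuclear side in SNU-449 (1.42), was at -1.72 in HepG2 (difference 3.17). ANXA2, a membrane-binding annexin, was at 0.66 and -2.21 (difference 2.89), RABGGTB at 4.05 and 1.04 and C1GALT1C1, a chaperone of O-glycosylation, at 2.40 and -0.59. In the other direction CBS, the cystathionine beta-synthase, was at -1.44 in SNU-449 and 1.65 in HepG2 (difference -3.07), and SLC22A18, L3HYPDH, DYRK1B and PLEKHO2 differed by -2.96, -2.67, -2.64 and -2.57.

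By list, 10 of 22 long non-coding RNAs described as cytoplasmic had the higher nuclear share in SNU-449 and 2 in HepG2, with own medians of 0.72 and -0.92; SNHG1 was at 4.26 and 1.08 (difference 3.21, SE 0.19). Chaperones and secretory genes had 20 and 2 of 32, with HSPA5 at 1.65 and -0.25, and immediate-early genes 21 and 1 of 38. Ribosomal proteins had 33 and 2 of 80, with own medians of -1.84 and -2.43. CLK kinases, OGT and SR proteins had 10 and 5 of 31, with medians of 2.01 and 2.13. The TMM counts stand against 20% and 13.4% over all genes tested. With RLE size factors the counts were 19 and 2 for chaperones and secretory genes, 16 and 2 for immediate-early genes, 29 and 7 for ribosomal proteins and 8 and 7 for CLK kinases, OGT and SR proteins, against 3195 and 3604 of 20459 over all genes tested with that scaling. In both lines ribosomal proteins had the lowest list median of those plotted.

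**Figure D5:**
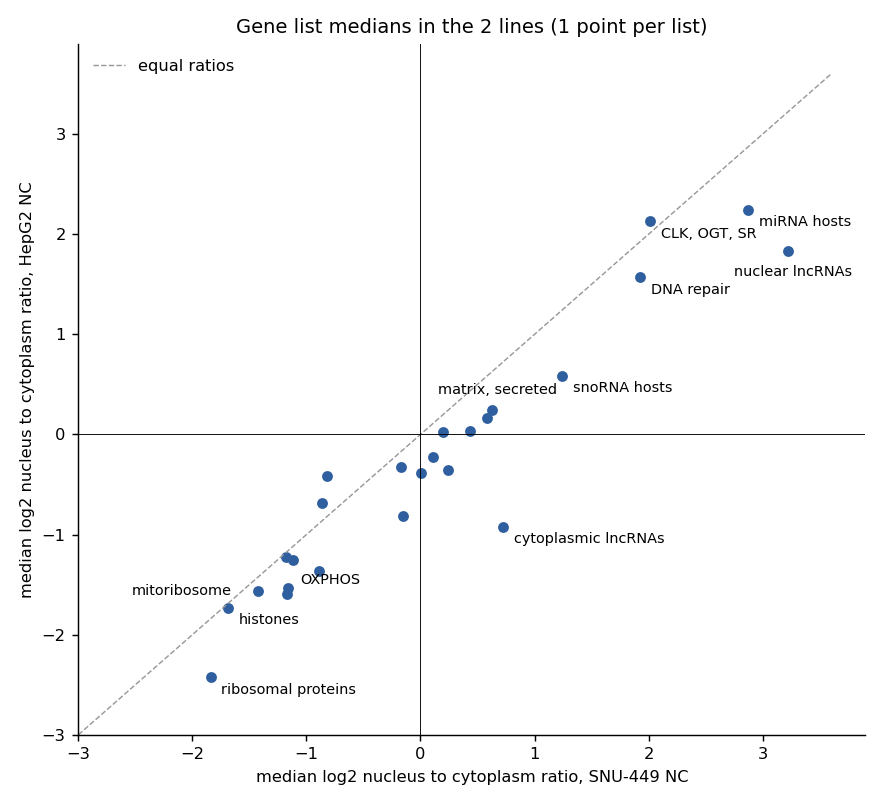
Median log2 nucleus to cytoplasm ratio of each gene list in HepG2 NC (vertical axis) against SNU-449 NC (horizontal axis), 1 point per list, with the line of equal ratios dashed. Ribosomal proteins lie lowest in both lines (-1.84 and -2.43), and the cytoplasmic long non-coding RNAs (0.72 and -0.92) lie far from the line.

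Each fraction had 2 libraries, and the spread used for the tests was shared with the siPANAD libraries of the line. Ratios are relative to the typical gene and not amounts per cell, and strand use in counting was not stated, so genes that overlap others are uncertain.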

How the data were processed

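RNA from cytoplasmic and nuclear extracts of SNU-449 and HepG2 was isolated with Trizol and sequenced from directional libraries on an Illumina instrument, per the labels' protocols. The deposited values are raw read counts per gene, 1 table per line. Per the submitters' processing notes, Trim Galore 0.6.4 and HISAT2 2.2.1 were used with build hg38. RNA selection, the counting program, its annotation and its strand setting are not given in the sources used here. In SNU-449, 67938 gene rows were used (1 incomplete row and 2 stray lines were left out), 58395 of which matched GENCODE 29 (GRCh38) by gene ID. Gene types, exons and overlaps come from that release, so overlaps with genes outside it are not counted.

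Groups follow the labels. The NC ratio of nucleus to cytoplasm was fitted with the siPANAD libraries of the line in 1 model of 8 libraries, so that 4 groups share 1 estimate of spread (biological coefficient of variation 0.0728), with edgeR 4.0.16: filterByExpr at 10 counts, TMM, quasi-likelihood test, Benjamini-Hochberg adjustment over all genes tested. The line difference was fitted on all 16 libraries. Deposited counts were also rerun with DESeq2 1.42.0, other scalings, no filter, glmTreat, the replicate number as a block, and each library left out. On simulated counts for the NC comparison (17028 genes tested) 42 of 67 genes changed by a log2 of 0.5, 64 of 67 by 1 and 66 of 66 by 2 were recovered, with 5 false calls. Apart from the changed genes, all simulated libraries had the same mean profile and a fixed spread, with changes balanced in direction. The false calls therefore do not measure error from the scaling between the fractions. Intervals and floors cover counting error only. Deviations of same-numbered nuclear and cytoplasmic libraries correlated at -0.030 in NC and -0.031 in siPANAD, so no pairing showed in the counts. The sample titles do not say whether same-numbered extracts came from the same cells.

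Beyond MALAT1, NEAT1, GAPDH, CDK6, NXF1 and C7orf25, the genes named are the leading genes of each direction (10 protein-coding and 6 long non-coding), for each list up to 2 of its most counted members and up to 2 with the largest ratio in each direction, and for the line difference 5 protein-coding genes of each sign. Hosts of microRNAs, marker genes of other cell types and the few genes given as exceptions were added after values were seen. The comparison, its gene lists and its tests were chosen with earlier results of these data known. Some of the genes that these rules select are not reported here.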

Additional observations from a re-analysis of the deposited data

Results flagged for a closer look

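For MALAT1, NEAT1 and 12 further genes described in the comparison of the lines, the ratio of nucleus to cytoplasm in NC cells differed between SNU-449 and HepG2 by the test of the difference itself (edgeR quasi-likelihood test, Benjamini-Hochberg adjusted p under 0.05). Genes named elsewhere were not listed here by that test, and some of them pass it too. Values are SNU-449 minus HepG2 on the log2 scale. Higher nuclear ratios in SNU-449 were found for MALAT1 (0.88), NEAT1 (2.40), MFNG (4.80), SNHG1 (3.21), RPS24 (3.17), RABGGTB (3.04), C1GALT1C1 (3.03), ANXA2 (2.89) and HSPA5 (1.93). Lower ones were found for CBS (-3.07), SLC22A18 (-2.96), L3HYPDH (-2.67), DYRK1B (-2.64) and PLEKHO2 (-2.57). Apart from MALAT1, NEAT1, SNHG1 and HSPA5, these are the 5 largest of each sign among protein-coding genes of at least 10 CPM in both lines whose ratios did not overlap between the lines and that share under 20% of exonic bases, so their size is partly that of the choice.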

How the results depend on the processing

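Ratios are relative to the typical gene, so the scaling matters most. With library totals alone, genes higher in the cytoplasm of NC cells numbered 3463, and genes at least 2-fold apart numbered 9019 toward the nucleus and 1688 toward the cytoplasm. In siPANAD cells the same numbers were 3657, 9207 and 1992. In the line difference 833 genes were at least 2-fold lower in SNU-449. Ratios below 0 with TMM turned above 0 with library totals for 7 named genes in NC, DYRK1B (0.41), MIR4435-2HG (0.095), NUTM2A-AS1 (0.27), PLEKHO2 (0.025), SRSF3 (0.59), TRA2B (0.36) and VIM (0.59), and in siPANAD for CALR (0.025), DYRK1B (0.42), NUTM2A-AS1 (0.40), SPARC (0.20), SRSF3 (0.38) and TRA2B (0.74; 0.00035 with TMM on protein-coding genes). The siPANAD ratio of PLEKHO2 was -0.057 without cytoplasmic siPANAD replicate 1 and 0.072 without replicate 2, and the line difference of CDK6, which did not pass the test, was 0.077 with library totals. Under glmTreat against a 1.5-fold change the line difference kept 2056 genes above 0 and 1127 below, and that of MALAT1 did not pass. Leaving out each library of the fit gave 7078 to 7962 NC genes on the nuclear side and 6213 to 6740 on the cytoplasmic side. With the replicate number as a block 7739 and 6452 NC genes passed, and 3949 and 2642 in the line difference. No pairing of same-numbered libraries showed in the counts. In NC, RLE factors, TMM on protein-coding genes, no filter, DESeq2, glmTreat and NC libraries only moved neither count of calls by over 1.5 times. For the genes singled out in NC, the value of each gene under each setting was set against the main fit. Of these values 2037 kept their direction and side of the threshold, 33 kept their direction and lost the call, 2 gained it and 7 turned. Many of these genes were chosen for large ratios or high counts, so the numbers do not describe all genes tested. Genes under 10 CPM and genes with shared exons are the least certain, and 2 libraries per fraction limit every estimate.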

Other observations

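Among protein-coding genes and pseudogenes the ratio was lower at higher levels. Among protein-coding genes at 100 CPM or more (mean of the 4 NC libraries), 458 of 2393 were higher in the nucleus and 1746 in the cytoplasm (median log2 ratio -1.04). At 10 to 100 CPM the numbers were 2728 and 2885 of 6570 (median -0.036, and above 0 with library totals), and under 1 CPM 562 and 127 of 1203 (median 1.15). Pseudogenes showed the same order with a wider range: none of the 16 at 100 CPM or more was higher in the nucleus and 14 were higher in the cytoplasm (median -3.16), against 316 and 94 of 565 under 1 CPM (median 2.06). Genes near the filter passed it through the fraction where they were high, and reads of abundant pseudogenes may come from their parent genes; neither was tested.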
